A study of Mus musculus with 31 samples.

Results

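The hypoxia response was followed through 10 genes chosen by symbol, *Hif1a*, *Epas1*, *Hif3a*, *Egln3*, *Slc2a1*, *Pdk1*, *Car9*, *Vegfa*, *Adm* and *Bnip3*. Each of these symbols matched 1 gene of the count table, so they made up 10 of its 39179 genes.

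Cells sense oxygen through the hypoxia-inducible factors, in which an oxygen-regulated alpha subunit (HIF1A, EPAS1 or HIF3A) joins ARNT to bind DNA at the hypoxia response element. In the presence of oxygen, prolyl hydroxylases such as EGLN3 mark the alpha subunits for VHL and degradation, and in its absence the dimer turns on genes of glucose uptake, glycolysis, pH control, vessel growth and mitophagy. Skin is a poorly oxygenated tissue, and HIF activity is a known feature of melanoma.

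RNA of whole tumors and of cultured cells was sequenced from its 3′ ends, to compare glucocorticoid (GC) treatment in melanoma with and without the glucocorticoid receptor (GR) in the cancer cells. The parental line, 20967, is a melanoma line from C57BL/6 mice that carries an inducible *Nras* G12D allele with Tyr::CreERT2. The GR KO line is a clone of it made by CRISPR/Cas9 editing of *Nr3c1*, the receptor's gene, so a difference between the lines may also be one between a clone and its parent. Tumors grew in the skin of wild-type C57BL/6 mice, whose own cells still carried the receptor in GR KO tumors too.

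The 20 tumors formed 4 groups of 5 mice, which were parental or GR KO tumors under control treatment or under clobetasol propionate, a potent GC, applied as a 0.05% ointment 3 times weekly. The 11 cultures were parental cells in DMSO (n = 3) or clobetasol (n = 2) and GR KO cells in DMSO (n = 3) or clobetasol (n = 3). Sources conflict on the dose in culture, which is 10 µM in the treatment labels and 1 µM in the names of the libraries. The ages of the mice are not given. Total counts ran from 15528066 to 26386770 per tumor and from 14441166 to 22463188 per culture, and a gene with 3 counts or fewer over a group was taken to be at the floor, a limit that covers counting error alone. The labels do not say whether cultures were grown independently, and the library names give all 11 the same date, so their p-values measure the spread between samples. Levels are CPM, counts relative to the library's total after scaling by TMM factors, which even out differences in RNA composition, and group levels are mean ± SD.

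*Nr3c1* itself was read first in every sample. Parental control tumors had 62.8, 57.6, 43.9, 55.9 and 50.5 CPM, and GR KO control tumors 20.3, 26.7, 31.2, 33.6 and 23.3 CPM, without overlap. The log2 difference was −1.02 ± 0.24 (edgeR adjusted p = 0.0313), and leaving out any 1 of parental replicates 1, 2, 3, 4 and 5 or GR KO replicates 1, 2 and 5 raised the adjusted p to between 0.0524 and 0.086. With GC the levels were 54.2, 23.5, 48.4, 36.4 and 49.6 CPM in parental tumors and 47.3, 21.4, 57.7, 31.7 and 46.9 CPM in GR KO tumors, which overlapped throughout. Parental cells had 33.9, 30.6 and 36.3 CPM in DMSO and 40.6 and 34.2 CPM in GC, against 25.8, 21.6 and 16.6 CPM and 21.4, 22.4 and 12.9 CPM in GR KO cells, and the highest GR KO culture was lower than the lowest parental one. These 3′ reads need not cover the edited part of the gene, and host cells add *Nr3c1* RNA to the tumors, so these counts do not check the edit. *Tsc22d3*, a gene that GR turns on, rose with GC in parental cells from 13.8 to 118 CPM on average (log2 fold change 3.09 ± 0.20 (SE), edgeR adjusted p = 2.28e-05), while its log2 fold change in GR KO cells was −0.05 (adjusted p = 0.984). The difference between these effects was 3.14 ± 0.27 (adjusted p = 0.000332). In tumors *Tsc22d3* rose in both genotypes, from 71.0 to 361 CPM in parental tumors (adjusted p = 1.61e-05, log2 fold change 2.34) and from 66.2 to 220 CPM in GR KO tumors (adjusted p = 0.000403, log2 fold change 1.77).

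Replicate 4 of the GR KO control tumors stood apart from its group. Across genes, its mean Pearson r with the other tumors of its group was 0.934, against 0.963 with the parental control tumors. Replicate 3 was also nearer to the parental controls (0.952 against 0.948), and replicate 1 had a lower r with its own group (0.9315). Replicate 4 was singled out after seeing the data, since leaving it out moved the counts of called genes most. Genes are not independent replicates, so these values carry no test. Calls of members that depend on this tumor are given with and without it. A melanocyte label could not be checked on pigment genes: *Tyr* had 0 counts in each of the 8 groups, and *Dct*, *Mlana* and *Sox10* had 0 in every culture. The most abundant of the 7 melanocyte markers was *Mitf*, and their summed level was 25.3 to 56.4 CPM in tumors and 3.19 to 12.1 CPM in cultures.

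A gene was called when its adjusted p in edgeR's quasi-likelihood test was under 0.05 and its linear fold change at least 1.5, and the share of all tested genes called in a comparison is the background for its count of members. No such share was computed for groups that did not overlap, and overlap is given as a description. GC in parental tumors changed 1 of 10 members, *Hif3a*, against 0.779% of 15919 genes. GC in GR KO tumors gave calls for 3 of 10, *Hif3a*, *Vegfa* and *Bnip3*, against 6.42%, and no member was called in a fit without the parental tumors. The difference between the 2 tumor effects, which share the fit but no samples, was called for 0 members and 0.195% of genes in edgeR, with 3 members at an unadjusted p under 0.05 and 2 members called by DESeq2, which called 7.66% of the genes it tested. Between genotypes, 2 of 10 members were called in control tumors (*Hif3a* and *Pdk1*, against 2.25%, with no member called in a fit of the control tumors alone) and 1 of 10 in GC-treated tumors (*Hif3a*, against 0.634%). Without replicate 4 of the GR KO controls, 5 members were called for GC in GR KO tumors, where 15.2% of genes were, 3 for the difference of effects, where 8.13% were, and 5 between genotypes in control tumors, where 11.1% were. DESeq2 called 2 members and 2.95% of genes for GC in parental tumors, and 4 members and 14.6% of genes for GC in GR KO tumors. Between genotypes it called 4 members and 6.44% of genes in control tumors, and 3 members and 2.06% in GC-treated ones.

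In culture, *Car9* and *Hif3a* were too scarce to be tested, which left 8 of 10 members. GC in parental cells changed 1 of 8, *Adm*, against 0.878% of 12525 genes in edgeR. DESeq2 called 2 members there, *Adm* and *Bnip3*, and 2% of genes. GC in GR KO cells changed 0 of 8 members and 0% of genes in edgeR, where 237 genes and 1 member had an unadjusted p under 0.05, and 0% in DESeq2. For the difference between these effects, edgeR called 0 of 8 members and 0.295% of genes, 2 members had an unadjusted p under 0.05, and DESeq2 called 1 member and 1.02% of genes. GR KO and parental cells differed for 2 of 8 members in DMSO (*Egln3* and *Epas1*, against 8.22% of genes) and for 1 of 8 in GC (*Egln3*, against 5.55%), where DESeq2 called 3 and 1 members and 11.4% and 7.87% of genes. Among the cultures *Epas1* passed the filter through the parental ones, where it is higher. Control tumors against DMSO cultures of the same line gave 5 of 9 tested members in the parental line, against 45.9% of 15468 genes, and 7 of 9 in the GR KO line, against 54.2%. Both counts include *Car9*, which passed the filter through the tumors alone. DESeq2 called the same numbers of members, and 48.4% and 56.4% of genes. Comparisons that have a group in common share its samples, so their values are set side by side and are not independent.

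**Figure D1:**
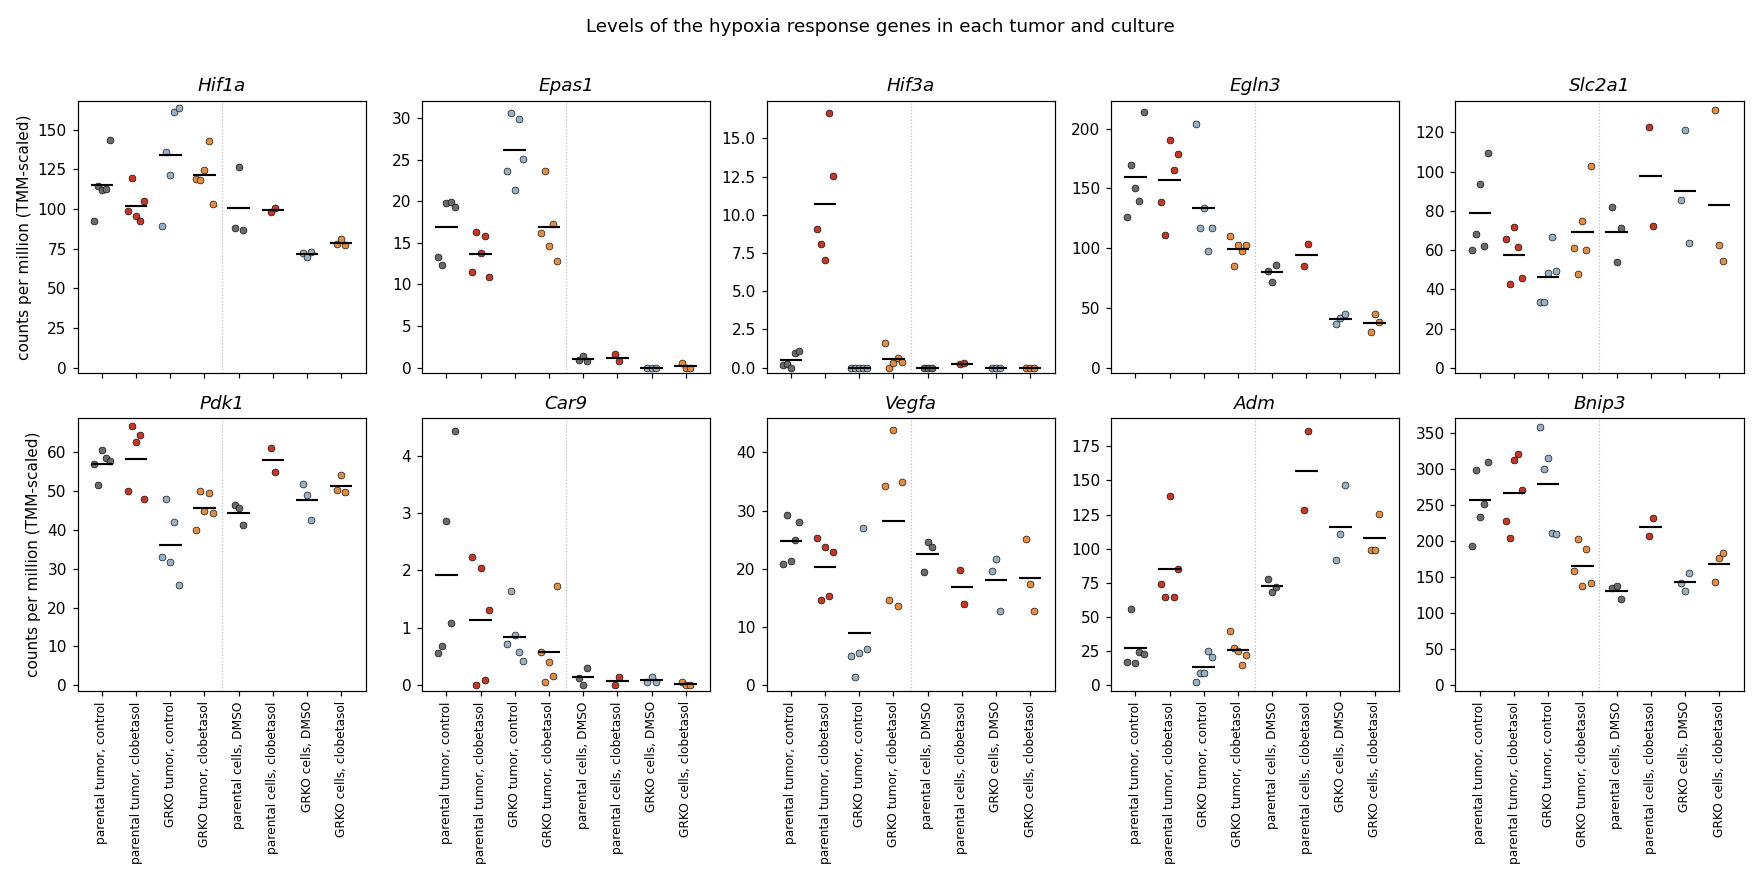
Levels of the 10 hypoxia response genes in each of the 31 samples, as TMM-scaled CPM on a linear axis that differs between genes, with 1 point per tumor or culture, a bar at the group mean and a dotted line between tumors and cultures. *Hif3a* lies between 7.06 and 16.6 CPM in the 5 GC-treated parental tumors and reaches at most 1.59 CPM in any other sample.

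*Hif3a* (ENSMUSG00000004328, GRCm38 chr7:17031507-17062427, minus strand) encodes the alpha subunit that lacks the strong carboxy-terminal activation domain of the other alpha subunits, and some of its splice forms hinder them. Parental control tumors had 3, 5, 0, 18 and 30 counts of it, or 0.189, 0.242, 0, 0.979 and 1.08 CPM. With GC, parental tumors had 175, 161, 159, 346 and 221 counts, or 9.07, 8.11, 7.06, 16.6 and 12.6 CPM. Each GC-treated tumor was above each control, and the lowest of them was 6.53 times the highest control. The mean rose from 0.498 ± 0.495 to 10.7 ± 3.92 CPM (log2 fold change 4.38 ± 0.91 (SE), edgeR adjusted p = 0.0229, higher in 5 of 5 tumors). The call was lost when control replicate 1, GC replicate 4 or GC replicate 5 was left out (adjusted p 0.0595 to 0.0774), while the log2 fold change stayed between 4.07 and 4.92 over the 10 tumors left out in turn.

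*Hif3a* was lower in GC-treated GR KO than in GC-treated parental tumors. Counts were 0 in each of the 5 GR KO control tumors and 36, 0, 7, 12 and 8 with GC, or 1.59, 0, 0.313, 0.620 and 0.345 CPM. Thus 4 of 5 GC-treated GR KO tumors had reads and 1 had none, and the highest had more than any parental control tumor. Over the groups, 63 counts against 0 made the GC-treated tumors at least 17.1-fold higher, taking the floor of 3 counts over the group for the controls (edgeR adjusted p = 0.0147 in the fit of 20 tumors, and 0.00608 to 0.0391 with each tumor left out in turn). Replicate 1 held 36 of these counts, and the other 4 tumors, with 27, were at least 9.31-fold higher. In the fit of 20 tumors the gene passed the filter with the help of parental tumors, control and GC-treated, which lie outside this comparison. In a fit of the GR KO tumors alone it did not pass, and without a filter there, a setting chosen after seeing the data, it was not called (adjusted p = 0.0931), so a rise in GR KO tumors was not established. A fitted difference between the 2 GC effects rests on the group at 0 and is no measure of size, and it was not called (edgeR adjusted p = 0.41), so that the effects differed between genotypes was not shown. Under GC, all 5 parental tumors exceeded all 5 GR KO tumors, the lowest by 4.45 times the highest, and the level fell by 4.19 ± 0.90 on the log2 scale in GR KO tumors (edgeR adjusted p = 0.03). Leaving out parental replicate 2, 4 or 5 or GR KO replicate 3, 4 or 5 of the GC-treated tumors lost that call (adjusted p 0.0583 to 0.106). In control tumors, 56 counts in the parental group against 0 made GR KO tumors at least 15.8-fold lower (edgeR adjusted p = 0.0331), or at least 10-fold without parental replicate 5, which held 30 of the counts, and 1 of the 5 parental tumors was at 0 as well. In a fit of the control tumors alone it did not pass the filter either, and was not called there without one (adjusted p = 0.125). Without parental replicate 2, 4 or 5 or GR KO replicate 1, 2, 3 or 5 the adjusted p was 0.0537 to 0.0776.

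In culture *Hif3a* was near the floor. DMSO-treated parental cells had 0 counts in 3 of 3 cultures, GC-treated parental cells 3 and 7 counts, or 0.213 and 0.324 CPM, and the 6 GR KO cultures 0. Both GC-treated parental cultures therefore had reads and none of the other 9 did, with 10 counts against 0 making the level at least 4.45-fold higher. The gene did not pass the filter in the cultures. Without a filter, edgeR called neither the GC effect in parental cells (adjusted p = 0.738, and 0.577 in those cultures alone, a setting chosen after seeing the data) nor the difference between lines in GC (adjusted p = 0.414). A rise of *Hif3a* in cells was thus not established. Its order of levels was GC-treated parental tumors (10.7 CPM), GC-treated GR KO tumors (0.572 ± 0.607), parental control tumors (0.498) and GC-treated parental cells (0.268 ± 0.0789), with the other 4 groups at 0. The highest group did not overlap the next, and the GC-treated GR KO and parental control tumors overlapped.

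Markers of other cell types moved in the same parental tumors. Neutrophil markers summed to 22.5, 68.1, 239, 33.1 and 1235 CPM in parental control tumors and to 14.8, 9.73, 11.2, 22.0 and 38.6 CPM with GC, with 2 of 5 tested markers called lower (*S100a8* and *S100a9*), *S100a8* the most abundant and *Ly6g* at 0. Of 8 keratinocyte markers 1 was called higher (*Lor*), and of 4 leukocyte markers 1 was called lower (*Coro1a*). Endothelial markers summed to 49.5, 34.5, 46.3, 49.2 and 40.4 CPM in parental controls and 30.5, 22.9, 28.7, 29.1 and 32.3 CPM with GC, groups that did not overlap although 0 of 8 were called by edgeR. *Pecam1* was the most abundant of them, and each of the 8 had reads. Fibroblast markers also separated, at 6574 to 7387 CPM in parental controls and 7485 to 10785 CPM with GC, with 0 of 6 called by edgeR and *Col3a1* the most abundant. No macrophage, T cell, pericyte, adipocyte, skeletal muscle, red blood cell or melanocyte marker was called by edgeR in this comparison, and 4 of 7 GC response genes were called higher. In bulk RNA, fewer cells of a type and less RNA per cell cannot be told apart, and the part of these cells in the *Hif3a* result was not tested.

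*Hif1a* (ENSMUSG00000021109, chr12:73901375-73947530, plus strand), the main alpha subunit in most tissues, changed little in tumors. It was at 92.7, 114, 112, 113 and 144 CPM in parental controls, 98.7, 120, 95.4, 92.3 and 105 CPM in parental tumors with GC, 89.2, 136, 121, 161 and 164 CPM in GR KO controls and 119, 118, 125, 143 and 103 CPM in GR KO tumors with GC. These 4 groups overlapped. The log2 fold change with GC was −0.17 (95% interval −0.52 to 0.17) in parental and −0.11 (−0.45 to 0.23) in GR KO tumors, and neither was called by edgeR (adjusted p = 0.698 and 0.739). In culture the levels were 88.3, 127 and 86.7 CPM in DMSO and 98.4 and 101 CPM in GC for parental cells, and 72.6, 70.0 and 72.9 CPM and 77.9, 80.8 and 77.1 CPM for GR KO cells. Every GR KO culture was lower than every parental culture. In DMSO the log2 difference was −0.49 ± 0.15 (edgeR adjusted p = 0.0577, not called), which became −0.59 with an adjusted p of 0.0443 when parental DMSO replicate 3 was left out. Its exons share 330 bases with an antisense gene and 148 with a gene on its own strand, so reads there may not be its own.

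Order by mean level placed *Hif1a* highest in GR KO control tumors (134 ± 30.9 CPM), followed by GC-treated GR KO tumors (122 ± 14.3), parental control tumors (115 ± 18.2), GC-treated parental tumors (102 ± 10.8), parental cells in DMSO (101 ± 22.6) and in GC (99.5 ± 1.57), and GR KO cells in GC (78.6 ± 1.97) and in DMSO (71.8 ± 1.56). Each group overlapped the next down to the parental cells in GC, and the last 3 were separate.

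*Epas1* (ENSMUSG00000024140, chr17:86753700-86833410, plus strand), which encodes HIF-2 alpha and is prominent in vessel walls, was mainly a gene of the tumors. Parental controls had 13.2, 12.4, 19.8, 19.9 and 19.3 CPM and GR KO controls 23.6, 30.6, 21.4, 29.9 and 25.1 CPM. With GC these became 11.6, 16.3, 13.8, 15.8 and 10.9 CPM in parental and 16.2, 23.6, 14.6, 17.2 and 12.9 CPM in GR KO tumors. All 5 GR KO controls were above all 5 parental controls, yet the log2 difference of 0.61 ± 0.22 was not called by edgeR (adjusted p = 0.134), nor was that of −0.60 ± 0.22 with GC in GR KO tumors (adjusted p = 0.101), in which the groups overlapped. DESeq2 called the latter (adjusted p = 0.0394, log2 fold change −0.63).

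Cultures held few *Epas1* reads. There were 14, 22 and 14 counts in parental cells in DMSO, 23 and 17 in GC, 0, 0 and 0 in GR KO cells in DMSO and 10, 0 and 0 in GC. Parental cells had reads in 5 of 5 cultures and GR KO cells in 1 of 6. In DMSO, 50 counts against 0 made GR KO cells at least 20-fold lower than parental cells (edgeR adjusted p = 0.0394), but leaving out any 1 of these 6 cultures, parental replicate 1, 2 or 3 or GR KO replicate 1, 2 or 3, raised the adjusted p to between 0.0623 and 0.115, and a replicate block to 0.0564. With reads in 1 of 6 GR KO cultures, the gene passed the filter through the parental cultures, where it is higher. In GC the call came about without GR KO replicate 1, the culture with 10 counts (adjusted p 0.0233 against 0.321 with it). The order of levels was GR KO control tumors (26.1 ± 3.98 CPM), parental control tumors (16.9 ± 3.77), GC-treated GR KO tumors (16.9 ± 4.10), GC-treated parental tumors (13.7 ± 2.42), parental cells in GC (1.21 ± 0.596) and DMSO (1.05 ± 0.290), and GR KO cells in GC (0.195 ± 0.338) and DMSO (0). The first group did not overlap the second, the tumors did not overlap the cultures, and the parental cells did not overlap the GR KO cells.

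*Egln3* (ENSMUSG00000035105, chr12:54178981-54203860, minus strand) encodes a prolyl hydroxylase that is itself a HIF target, and it separated the cultured lines. Parental cells had 80.8, 72.0 and 86.2 CPM in DMSO and 84.9 and 103 CPM in GC, and GR KO cells 36.5, 41.4 and 44.9 CPM in DMSO and 29.5, 45.0 and 37.8 CPM in GC. The lowest parental culture was above the highest GR KO one. *Egln3* fell by 0.97 ± 0.17 on the log2 scale in GR KO against parental cells in DMSO (edgeR adjusted p = 0.00483) and by 1.30 ± 0.19 in GC (edgeR adjusted p = 0.00166), in 3 of 3 cultures each time. Both calls held with each culture left out in turn, with adjusted p of 0.00809 to 0.0302 in DMSO and 0.00246 to 0.0289 in GC. GC itself made no called difference in either line (log2 fold change 0.23 ± 0.19 and −0.09 ± 0.17).

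In tumors edgeR did not call *Egln3* between genotypes, and whether tumors and cells differed here was not tested. The levels were 126, 169, 150, 140 and 214 CPM in parental controls, 139, 111, 191, 165 and 179 CPM in parental tumors with GC, 203, 117, 133, 97.3 and 117 CPM in GR KO controls and 110, 85.1, 103, 97.8 and 103 CPM in GR KO tumors with GC. Under GC the highest GR KO tumor lay just below the lowest parental one, and the log2 difference of −0.63 ± 0.21 was not called by edgeR (adjusted p = 0.201). From parental control tumors (160 ± 34.3 CPM) the order ran through GC-treated parental tumors (157 ± 32.1), GR KO control tumors (134 ± 41.1), GC-treated GR KO tumors (99.7 ± 9.20), parental cells in GC (94.2 ± 13.1) and DMSO (79.7 ± 7.18) to GR KO cells in DMSO (40.9 ± 4.17) and GC (37.5 ± 7.75). Neighbours overlapped except for the step from parental to GR KO cells.

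*Slc2a1* (ENSMUSG00000028645, chr4:119108711-119137983, plus strand) encodes the glucose transporter GLUT1. It was at 60.1, 68.2, 93.8, 62.3 and 110 CPM in parental controls, 65.6, 42.5, 71.8, 61.5 and 45.9 CPM in parental tumors with GC, 33.3, 33.6, 48.3, 66.8 and 49.4 CPM in GR KO controls and 61.2, 47.7, 74.6, 60.2 and 103 CPM in GR KO tumors with GC. Replicate 4, the tumor that stood apart, was the highest GR KO control, and both pairs of treatment groups overlapped. The log2 fold change with GC was −0.47 ± 0.24 in parental and 0.63 ± 0.24 in GR KO tumors, and their difference was −1.10 ± 0.34, none of them called by edgeR (adjusted p = 0.38, 0.109 and 0.108). Without replicate 4 the effect in GR KO tumors was 0.78 (adjusted p = 0.0378), the difference −1.24 (adjusted p = 0.0333), and the contrast between genotypes in control tumors −0.94 (adjusted p = 0.0213, against 0.0766 and −0.80 with it). DESeq2 called the difference and the genotype contrast with this tumor included (adjusted p = 0.043 and 0.0382).

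Cultures spread widely in *Slc2a1*, at 82.1, 53.7 and 71.2 CPM in parental cells in DMSO, 123 and 72.5 CPM in GC, 85.5, 121 and 63.9 CPM in GR KO cells in DMSO and 131, 62.6 and 54.6 CPM in GC, and these groups overlapped. The means ran from parental cells in GC (97.7 ± 35.6 CPM) through GR KO cells in DMSO (90.2 ± 29.0) and GC (82.8 ± 42.2), parental control tumors (78.8 ± 21.9), GC-treated GR KO tumors (69.4 ± 21.1), parental cells in DMSO (69.0 ± 14.3) and GC-treated parental tumors (57.4 ± 12.7) to GR KO control tumors (46.3 ± 13.8). Every neighbouring pair in this order overlapped. The exons of *Slc2a1* share 105 bases with an antisense gene.

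*Pdk1* (ENSMUSG00000006494, chr2:71873224-71903858, plus strand) encodes a kinase that keeps pyruvate out of the mitochondria. Parental control tumors were tightly grouped at 57.0, 51.6, 60.6, 58.6 and 57.7 CPM, and GR KO controls had 33.1, 47.9, 31.8, 42.2 and 25.8 CPM. Each GR KO control was below each parental control. *Pdk1* fell by 0.68 ± 0.18 on the log2 scale (edgeR adjusted p = 0.0433, lower in 5 of 5 tumors). This call was lost in 8 of the 10 fits with a tumor left out, namely parental replicate 1, 2, 3, 4 or 5 or GR KO replicate 1, 3 or 5 (adjusted p 0.065 to 0.101), in a fit of the control tumors alone (0.103) and without a filter (0.059), and kept without GR KO replicate 4 (0.0192, log2 fold change −0.72). With GC the levels were 50.0, 66.8, 62.7, 64.6 and 48.1 CPM in parental tumors and 39.9, 50.0, 44.9, 49.6 and 44.5 CPM in GR KO tumors. Those groups overlapped each other and their controls.

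In cells *Pdk1* was at 46.6, 45.7 and 41.2 CPM (parental, DMSO), 61.2 and 55.0 CPM (parental, GC), 51.9, 49.0 and 42.6 CPM (GR KO, DMSO) and 50.2, 54.1 and 49.8 CPM (GR KO, GC). Both GC-treated parental cultures were above the 3 in DMSO, at a log2 fold change of 0.38 ± 0.14 that was not called by edgeR (adjusted p = 0.406). The order was GC-treated parental tumors (58.4 ± 8.71 CPM), parental cells in GC (58.1 ± 4.42), parental control tumors (57.1 ± 3.37), GR KO cells in GC (51.4 ± 2.36) and DMSO (47.8 ± 4.75), GC-treated GR KO tumors (45.8 ± 4.15), parental cells in DMSO (44.5 ± 2.85) and GR KO control tumors (36.2 ± 8.80), with overlap at every step.

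*Car9* (ENSMUSG00000028463, chr4:43506966-43513729, plus strand), which encodes the cell-surface carbonic anhydrase IX that acidifies the space around hypoxic cells, had few reads. Its counts were 9, 14, 57, 20 and 123 in parental control tumors, 43, 0, 46, 2 and 23 with GC, 10, 28, 13, 14 and 7 in GR KO controls and 13, 1, 9, 3 and 40 with GC. Single tumors carried much of each group's level, and the groups overlapped. GC gave log2 fold changes of −0.80 ± 0.99 (parental) and −0.49 ± 1.00 (GR KO), with 95% intervals of −2.73 to 1.13 and −2.44 to 1.47, which leave room for a sizeable change in either direction. Cultures had 2, 0 and 5 counts (parental, DMSO), 0 and 3 (parental, GC), 1, 3 and 1 (GR KO, DMSO) and 1, 0 and 0 (GR KO, GC). Mean levels fell in order from parental control tumors (1.93 ± 1.68 CPM) to GC-treated parental tumors (1.13 ± 1.05), GR KO control tumors (0.847 ± 0.471), GC-treated GR KO tumors (0.581 ± 0.670), parental cells in DMSO (0.144 ± 0.15), GR KO cells in DMSO (0.0852 ± 0.0536), parental cells in GC (0.0695 ± 0.0982) and GR KO cells in GC (0.0195 ± 0.0338), and each overlapped the next. An antisense gene shares 214 bases of its exons.

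*Vegfa* (ENSMUSG00000023951, chr17:46016993-46032369, minus strand), the signal that makes vessels sprout, was low in 4 of 5 GR KO control tumors. Levels were 20.8, 29.2, 21.3, 24.9 and 28.0 CPM in parental controls and 25.2, 14.6, 23.8, 15.3 and 22.9 CPM with GC, and 4.98, 1.34, 5.56, 27.0 and 6.28 CPM in GR KO controls and 34.3, 14.6, 43.8, 13.5 and 35.0 CPM with GC. Replicate 4 of the GR KO controls, the tumor that stood apart, lay among the parental levels, and the other 4 lay below every other tumor. In GR KO tumors *Vegfa* rose with GC from 9.02 ± 10.2 to 28.2 ± 13.5 CPM (log2 fold change 1.70 ± 0.48, edgeR adjusted p = 0.0338, with overlap through replicate 4). Without that tumor the log2 fold change was 2.66 (adjusted p = 0.000624), and the call was lost without control replicate 1, 2, 3 or 5 or GC replicate 1, 3 or 5 (adjusted p 0.0648 to 0.108) and in a fit of the GR KO tumors alone (0.113). In parental tumors the log2 fold change was −0.29 ± 0.46 (edgeR adjusted p = 0.826).

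The difference between these *Vegfa* effects was not called by edgeR (adjusted p = 0.12, 95% interval of the log2 fold change −3.29 to −0.70, not adjusted for the number of genes), and −2.95 (adjusted p = 0.0088) without replicate 4. GR KO controls were lower than parental controls by a log2 difference of −1.50 ± 0.47 that edgeR did not call (adjusted p = 0.0883), and of −2.45 (adjusted p = 0.0017) without it. DESeq2 called both with the tumor included (adjusted p = 0.0396 and 0.0274). Cells had 19.4, 24.7 and 23.7 CPM (parental, DMSO), 19.8 and 13.9 CPM (parental, GC), 19.6, 21.7 and 12.8 CPM (GR KO, DMSO) and 25.0, 17.4 and 12.8 CPM (GR KO, GC), so the low level of the GR KO controls was not seen in GR KO cells. Means ran from GC-treated GR KO tumors through parental control tumors (24.8 ± 3.82 CPM), parental cells in DMSO (22.6 ± 2.80), GC-treated parental tumors (20.4 ± 5.02), GR KO cells in GC (18.4 ± 6.18) and DMSO (18.0 ± 4.67) and parental cells in GC (16.9 ± 4.20) to GR KO control tumors, with every neighbouring pair overlapping.

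*Adm* (ENSMUSG00000030790, chr7:110627661-110629820, plus strand) encodes adrenomedullin, a peptide that widens vessels and tightens their walls. In culture it had 78.1, 68.2 and 72.2 CPM in parental cells in DMSO and 128 and 186 CPM in GC, against 91.5, 110 and 147 CPM and 98.8, 98.8 and 125 CPM in GR KO cells. Both GC-treated parental cultures were above the 3 DMSO cultures, and the GR KO groups overlapped. *Adm* rose in parental cells by a log2 fold change of 1.10 ± 0.22 (edgeR adjusted p = 0.042, higher in 2 of 2 cultures), a call that was lost with any 1 of the 5 cultures left out, DMSO replicate 1, 2 or 3 or GC replicate 1 or 2 (adjusted p 0.067 to 0.467, log2 fold change 0.80 to 1.35), and in a fit of the parental cultures alone (0.0718). Where 1 GC culture remained, its spread was taken from the other groups. The log2 fold change in GR KO cells was −0.08 ± 0.20, and the difference between the lines, 1.18 ± 0.30, was not called by edgeR (adjusted p = 0.239) and was by DESeq2 (adjusted p = 0.0386). In DMSO *Adm* was higher in GR KO than in parental cells in 3 of 3 cultures, which edgeR did not call (log2 difference 0.67 ± 0.20, adjusted p = 0.0626) unless GR KO replicate 1 was left out (0.82, adjusted p = 0.0457) or no filter was used (0.0299). DESeq2 called it (adjusted p = 0.0257).

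In parental tumors edgeR did not call *Adm* with GC. Control tumors had 16.8, 56.1, 16.2, 24.0 and 23.0 CPM, and GC-treated ones 74.3, 64.4, 138, 64.7 and 85.4 CPM. Each GC-treated tumor was above each control, of which replicate 2 was far above the other 4. The log2 fold change of 1.65 ± 0.43 missed the threshold in edgeR (adjusted p = 0.0697), and passed it in a fit of the parental tumors alone (0.0418). It was 2.09 (adjusted p = 0.0198) without control replicate 2 and called by DESeq2 with it (adjusted p = 0.00601). GR KO tumors had 2.31, 9.16, 9.15, 25.0 and 20.6 CPM in controls and 39.8, 27.1, 24.7, 14.5 and 22.3 CPM with GC. These overlapped, at a log2 fold change of 1.00 ± 0.43 (edgeR adjusted p = 0.15), or 1.34 (adjusted p = 0.0429) without control replicate 4. The difference between the genotypes' effects was 0.65 ± 0.59 (edgeR adjusted p = 0.557). Under GC all 5 GR KO tumors were below all 5 parental tumors, at a log2 difference of −1.71 ± 0.43 that was not called by edgeR (adjusted p = 0.0619), but was without a filter (0.0424), in a fit of the GC-treated tumors alone (0.0122) and by DESeq2 (adjusted p = 0.00393). In control tumors the difference was −1.06 ± 0.43 (edgeR adjusted p = 0.169), and −1.39 (adjusted p = 0.0437) without replicate 4.

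*Adm* levels were highest in parental cells in GC (157 ± 41.3 CPM), then GR KO cells in DMSO (116 ± 28.0) and GC (108 ± 15.2), GC-treated parental tumors (85.4 ± 30.7), parental cells in DMSO (72.9 ± 4.99), parental control tumors (27.2 ± 16.5), GC-treated GR KO tumors (25.7 ± 9.23) and GR KO control tumors (13.2 ± 9.28). The step from parental cells in DMSO to parental control tumors was the one without overlap.

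*Bnip3* (ENSMUSG00000078566, chr7:138890836-138909519, minus strand) encodes a mitochondrial receptor for mitophagy. Its levels were 192, 297, 233, 251 and 309 CPM in parental controls and 228, 204, 312, 320 and 271 CPM with GC, and 358, 300, 315, 211 and 210 CPM in GR KO controls and 158, 202, 137, 188 and 141 CPM with GC. The parental groups overlapped, while every GC-treated GR KO tumor was below every GR KO control. *Bnip3* fell by 0.73 ± 0.20 on the log2 scale with GC in GR KO tumors (edgeR adjusted p = 0.0319, lower in 5 of 5 tumors). The call was lost without control replicate 1, 2 or 3 or GC replicate 1, 3 or 5 (adjusted p 0.0603 to 0.0993) and in a fit of the GR KO tumors alone (0.074), and the effect was −0.82 (adjusted p = 0.0101) without control replicate 4. With library totals unscaled by TMM, a setting chosen after seeing the data, the median of all genes shifted by 0.26 in this comparison, the log2 fold change of *Bnip3* was −0.45 (adjusted p = 0.123), and *Pdk1* reached 0.62 (adjusted p = 0.0375). The difference from the effect in parental tumors, 0.78 ± 0.28, was not called by edgeR (adjusted p = 0.141), and was 0.88 (adjusted p = 0.0492) without control replicate 4. Under GC each GR KO tumor was below each parental tumor, at a log2 difference of −0.67 ± 0.20 (edgeR adjusted p = 0.146, not called), which DESeq2 called (adjusted p = 0.0492).

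Cultures had 135, 138 and 119 CPM of *Bnip3* (parental, DMSO), 206 and 232 CPM (parental, GC), 142, 131 and 156 CPM (GR KO, DMSO) and 143, 177 and 183 CPM (GR KO, GC). The 2 GC-treated parental cultures were above the other 9. Their log2 fold change of 0.74 ± 0.15 missed the threshold in edgeR (adjusted p = 0.0508), and for *Bnip3* the call depended on the setting. It came about without a filter (0.0382), with at least 10 counts in every sample (0.0496), with library totals (0.0195, chosen after seeing the data) and in DESeq2 (adjusted p = 0.00254). It did not come about in a fit of the parental cultures alone (0.137) or with any culture of these left out (0.0695 to 0.417). Without a filter, the parental cultures alone gave 2 called members with GC, a setting chosen after seeing the data. The difference between the lines in *Bnip3* was 0.47 ± 0.21 (edgeR adjusted p = 0.563). The order was GR KO control tumors (279 ± 66.0 CPM), GC-treated parental tumors (267 ± 50.9), parental control tumors (256 ± 47.9), parental cells in GC (219 ± 17.8), GR KO cells in GC (168 ± 21.4), GC-treated GR KO tumors (165 ± 28.8), GR KO cells in DMSO (143 ± 12.3) and parental cells in DMSO (131 ± 10.0), and of the neighbours parental and GR KO cells in GC alone did not overlap. Its exons share 504 bases with an antisense gene.

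**Figure D2:**
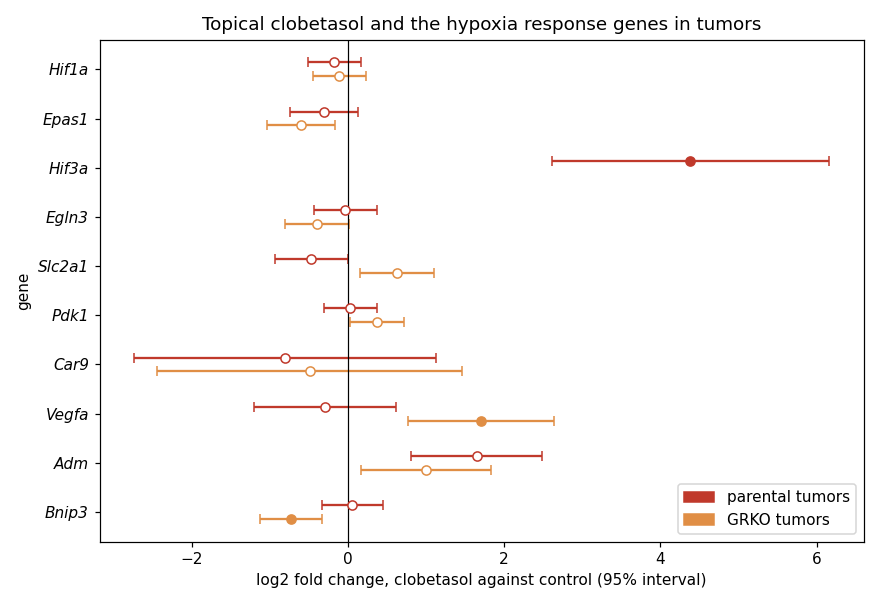
Log2 fold change of GC against control in parental and GR KO tumors for each gene, with the 95% interval as a bar and filled points for called genes; *Hif3a* in GR KO tumors is left out because its control group had 0 counts. *Hif3a* lies at 4.38 in parental tumors, and *Vegfa* at 1.70 and *Bnip3* at −0.73 in GR KO tumors are the other filled points.

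Over the members as a list, the median log2 fold change with GC was −0.10 in parental tumors, against 0.00 over all genes, and 0.13 in GR KO tumors, against 0.05, also with *Hif3a* at its bound. It was 0.30 in parental cells, against 0.00, and 0.10 in GR KO cells, against 0.02. Between genotypes the members' median was −0.74 in control tumors, against −0.04 over all genes, and −0.49 in GC-treated tumors, against 0.01, with 7 of 10 and 6 of 10 members below 0. In cells it was −0.12 in DMSO and −0.33 in GC, against 0.01 and 0.02. Above 0 were *Epas1*, *Hif1a* and *Bnip3* in control tumors and *Epas1*, *Hif1a*, *Vegfa* and *Slc2a1* under GC. Since the medians over all genes were near 0, about as many of all genes lay below 0 as above it. The members' medians and counts were not tested.

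Several marker lists moved with GC in GR KO tumors, where *Vegfa* and *Bnip3* were called. Fibroblast markers summed to 3504, 3795, 4411, 6847 and 4985 CPM in controls and 9732, 7933, 11163, 7080 and 10479 CPM with GC, with 4 of 6 called higher and *Col3a1* the most abundant. Red blood cell markers summed to 201, 244, 192, 270 and 151 CPM in controls and 91.8, 35.4, 54.8, 70.4 and 46.8 CPM with GC, with 4 of 5 lower and *Hbb-bs* the most abundant. Leukocyte markers, led by *Laptm5*, summed to 2752, 2013, 1843, 1735 and 1685 CPM in controls and 846, 1074, 797, 829 and 855 CPM with GC, with 2 of 4 lower. None of these 3 lists overlapped between treatments. Endothelial markers summed to 64.4, 48.3, 70.1, 79.8 and 64.3 CPM and 48.0, 44.6, 49.1, 42.8 and 47.9 CPM, with 0 of 8 called by edgeR. Keratinocyte markers summed to 1963 to 3727 CPM in controls and 1112 to 1900 CPM with GC, although 2 of 8 were called higher and 1 lower, and adipocyte markers to 89.9 to 229 CPM and 51.8 to 77.9 CPM, with 1 of 6 lower, and neither list overlapped. Of the other lists, 1 of 7 macrophage markers was higher, 1 of 6 each of the skeletal muscle and T cell markers was lower, no neutrophil, pericyte or melanocyte marker was called, and 4 of 7 GC response genes were higher. Without control replicate 4, 3 keratinocyte markers and 5 GC response genes were higher, 3 red blood cell markers were lower and the other lists kept their counts. Their part in the results for *Vegfa* and *Bnip3* was not tested.

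Between genotypes in control tumors, where *Pdk1* and *Hif3a* were called lower in the fit of 20 tumors, 1 marker each of the fibroblast (*Col3a1*) and keratinocyte (*Krt1*) lists was lower in GR KO tumors and 1 each of the leukocyte (*Laptm5*), red blood cell (*Hba-a2*) and pericyte and smooth muscle (*Acta2*) lists was higher, and 1 GC response gene (*Fkbp5*) was lower. The sums of 3 lists did not overlap and were higher in GR KO tumors, macrophage (3638 to 5319 CPM in parental and 5595 to 8944 CPM in GR KO controls, 0 of 7 called by edgeR), leukocyte (919 to 1252 and 1685 to 2752 CPM) and pericyte and smooth muscle (485 to 775 and 938 to 1237 CPM). The keratinocyte sum was 1157 to 3020 CPM in parental and 1963 to 3727 CPM in GR KO controls, with overlap. Without replicate 4, 4 fibroblast, 2 keratinocyte and 1 adipocyte markers were lower, and 2 leukocyte, 2 red blood cell, 1 macrophage and 1 keratinocyte markers higher, with the other lists unchanged. Between genotypes under GC, where *Hif3a* was called lower, neutrophil (9.73 to 38.6 CPM in parental and 49.1 to 228 CPM in GR KO tumors) and endothelial sums (22.9 to 32.3 and 42.8 to 49.1 CPM) were higher in GR KO tumors and the adipocyte sum lower (126 to 172 and 51.8 to 77.9 CPM), without overlap, and 1 adipocyte marker (*Cfd*) and 1 GC response gene (*Per1*) were called lower. The part of these cells in the results for *Pdk1* and *Hif3a* was not tested.

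Whole control tumors were set against DMSO cultures of the same line to place the members in tissue and in cancer cells, a comparison in which host cells, growth in the animal and extraction cannot be told apart. *Epas1* was higher in parental tumors than in parental cells (log2 fold change 4.00 ± 0.35, edgeR adjusted p = 5.44e-08) and at least 509-fold higher in the GR KO line, with 2311 counts against 0 (edgeR adjusted p = 4.46e-11). *Egln3* rose by 1.00 ± 0.23 in the parental and 1.73 ± 0.24 in the GR KO line (edgeR adjusted p = 0.00161 and 5.73e-06), and *Bnip3* by 0.97 ± 0.21 and 0.99 ± 0.21 (adjusted p = 0.000981 and 0.00064), all on the log2 scale. For these 3 genes each of the 5 tumors was above each of the 3 cultures, and the calls held with each sample left out in turn. Of all genes, 45.9% and 54.2% were called in these contrasts, and the share without overlap was not computed, so the separation is not particular to these members.

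*Car9* was also higher in the tumors, in 5 of 5 of each line, by a log2 fold change of 3.66 ± 1.22 in the parental line (edgeR adjusted p = 0.0183) and 3.23 ± 1.21 in the GR KO line (edgeR adjusted p = 0.0291). No DMSO culture reached the filter's 0.5 CPM, with at most 0.299 CPM in the parental and 0.147 CPM in the GR KO line. The gene thus passed the filter through the tumors alone, where it is higher. Leaving out parental tumor 5 or DMSO culture 1 or 2, or GR KO tumor 2 or DMSO culture 1, 2 or 3, lost these calls (adjusted p 0.0501 to 0.0676 and 0.0508 to 0.101), as did a replicate block (0.0593 and 0.0539) and, in the GR KO line, a fit of its samples alone (0.0592, and 0.151 without a filter). *Adm* went the other way in both lines, with every tumor below every culture, and fell by 1.42 ± 0.48 (edgeR adjusted p = 0.0197) and by 3.11 ± 0.49 (edgeR adjusted p = 2.32e-05) on the log2 scale. The parental call for *Adm* was lost without DMSO culture 1 (adjusted p = 0.0548). In the GR KO line alone, *Hif1a* rose by 0.93 ± 0.21 with no overlap (edgeR adjusted p = 0.00117) and *Slc2a1* fell by 0.94 ± 0.26 with overlap (edgeR adjusted p = 0.00513, and 0.0644 without DMSO culture 2). *Vegfa* was not called in either line with all samples, but was lower in GR KO tumors without tumor 4 (log2 fold change −1.96, adjusted p = 0.000136) and with a replicate block (−1.81, adjusted p = 0.00756). Whether the lines differed in these contrasts was not tested. The members' median was 0.35 in the parental line, against 0.34 over all genes, and 0.93 in the GR KO line, against 0.33.

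Markers of most host cells were much lower in the cultures than in the tumors, but pericyte and smooth muscle markers summed to 2565 to 5553 CPM in cultures and 485 to 1372 CPM in tumors, and fibroblast markers still reached 63.6 to 289 CPM in cultures. Endothelial markers, led by *Pecam1* in tumors, summed to 34.5 to 79.8 CPM in control tumors of either genotype and to 0.125 to 1.26 CPM in the 11 cultures, where *Cldn5*, *Erg* and *Tek* had 0 counts. All 8 endothelial, 8 keratinocyte, 7 macrophage, 6 T cell, 6 fibroblast, 6 skeletal muscle, 5 red blood cell, 5 neutrophil, 5 adipocyte and 4 leukocyte markers tested were called higher in the tumors of both lines. Of all 15468 genes, 4600 were called higher in the parental and 5292 in the GR KO line. Many of these markers passed the filter through the tumors. In DMSO cultures 5 of 6 T cell markers had 0 counts in the parental line and 6 of 6 in the GR KO line. These calls describe the lists and carry no information on the members. Of 6 pericyte and smooth muscle markers 3 were higher in both lines, and 3 in the parental and 2 in the GR KO line were lower. Of 5 melanocyte markers 5 and 4 were higher, and of 7 GC response genes 6 and 3. The part of host cells in the levels of *Epas1*, *Egln3*, *Bnip3*, *Car9* and *Adm* was not tested.

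Around the members, 79 other genes of the pathway were grouped as regulators of HIF, glycolysis, pH control, vessel signals, mitophagy and stress, and matrix and chromatin, and 77 were tested in tumors and 74 in cells. GC in parental tumors, where 0.779% of all genes were called, raised 1 of 77, *Ddit4*, an inhibitor of mTOR (log2 fold change 1.77 ± 0.25, edgeR adjusted p = 0.000591), and lowered none that edgeR called, with a median of 0.04 against 0.00 over all genes. In GR KO tumors GC raised 4 of 77, the adrenomedullin receptor gene *Calcrl* (1.44, adjusted p = 0.00476), the HIF antagonist *Cited2* (1.26, adjusted p = 0.0087), *Ddit4* (1.19, adjusted p = 0.00797) and the VEGF co-receptor gene *Nrp1* (1.10, adjusted p = 0.0262). It lowered 8, most of all *Ramp3* (−2.58, adjusted p = 0.00122), the VEGF receptor gene *Kdr* (−1.32, adjusted p = 0.00567), *Pgf* (−1.30, adjusted p = 0.0101) and the lactate exporter gene *Slc16a3* (−1.15, adjusted p = 0.0149). The 4 others were of the glycolysis list, in which 4 of 20 fell and the median was −0.37 against 0.05 over all genes. Of all 15919 genes, 431 were called higher and 591 lower in this comparison. By list, 1 of 10 regulators of HIF was higher, 1 of 6 pH control genes lower, 2 of 14 vessel signals higher and 3 lower, 1 of 17 mitophagy and stress genes higher, and 0 of 10 matrix and chromatin genes called by edgeR. The difference between the tumor effects was called by edgeR for 0 of 77. Without replicate 4 of the GR KO controls, GC raised 7 and lowered 12 of 77 in GR KO tumors, where 15.2% of all genes were called, and the difference of effects was called for 9, against 8.13%. With all tumors these shares were 6.42% and 0.195%.

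Between genotypes in control tumors, where 2.25% of all genes were called, 3 of 77 pathway genes were higher in GR KO tumors, *Pgf* (log2 fold change 1.25, edgeR adjusted p = 0.0288), *Kdr* (0.98, adjusted p = 0.0472) and the hexokinase gene *Hk2* (0.79, adjusted p = 0.0331). Lower were 5, with the largest changes in *Calcrl* (−1.53, adjusted p = 0.00756), *Nrp1* (−1.23, adjusted p = 0.0296), *Mxi1* (−0.94, adjusted p = 0.0351) and the collagen hydroxylase gene *P4ha1* (−0.77, adjusted p = 0.0485). Without replicate 4, 6 were higher and 7 lower in GR KO control tumors, where 11.1% of all genes were called. With GC, where 0.634% were, 2 were lower in GR KO tumors, *Ramp2* (−1.98, adjusted p = 0.0388) and *Plod1* (−1.10, adjusted p = 0.0201).

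In parental cells, where 0.878% of all genes were called, GC raised 2 of 74, the collagen cross-linking enzyme gene *Lox* (log2 fold change 1.50 ± 0.16, edgeR adjusted p = 0.000712) and *Ndrg1* (0.89, adjusted p = 0.0273), and in GR KO cells edgeR called 0. Of 6 tested GC response genes, 5 were higher with GC in parental cells and 0 called by edgeR in GR KO cells. The difference between the lines was called for *Lox* alone among the 74 (1.33 ± 0.22, edgeR adjusted p = 0.0322). Between the lines in DMSO, where 8.22% of all genes were called, 4 of 74 were higher in GR KO cells, among them *Lox* (0.97, adjusted p = 0.00193), *Cited2* (0.74, adjusted p = 0.0309) and *Loxl2* (0.61, adjusted p = 0.0126), and 8 were lower. Among these *Eno2* had 48, 87 and 63 counts in parental and 0 in each GR KO culture (adjusted p = 0.000876) and *Vegfc* 6, 18 and 10 against 0 (adjusted p = 0.0171), and *Ramp3* (−2.50, adjusted p = 0.0188) and *Angpt1* (−2.29, adjusted p = 0.0002) followed. Both *Eno2* and *Vegfc* passed the filter through the parental cultures alone. In GC, where 5.55% of all genes were called, *Calcrl* (1.07, adjusted p = 0.0417) and *Cited2* (0.84, adjusted p = 0.0409) were higher and 9 were lower, again with *Eno2* (30 and 32 counts against 0, adjusted p = 0.00293) and *Vegfc* (25 and 55 counts against 0, adjusted p = 0.00791) at 0 in GR KO cells, and with *Angpt1* (−2.86, adjusted p = 7.62e-05) and *Pfkfb4* (−1.50, adjusted p = 0.00376).

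Control tumors against cultures called 23 of 77 pathway genes higher and 15 lower in the parental line, where 45.9% of all genes were called, with a median of 0.26 against 0.34 over all genes, and 31 higher and 22 lower in the GR KO line, where 54.2% were, with a median of 0.23 against 0.33. The circadian regulator gene *Rora* was among the most raised in both lines (log2 fold change 6.03 and 6.90, edgeR adjusted p = 3.46e-08 and 8.34e-09), as was *Ndufa4l2* (adjusted p = 2e-06 and 5.35e-07), which had 0 counts in the DMSO cultures and so passed the filter through the tumors alone. *Kdr* (4.47, adjusted p = 1.94e-08) and *Car2* (4.14, adjusted p = 0.0308) followed in the parental line, and *Eno2* and *Slc2a3*, both at 0 in GR KO DMSO cultures, in the GR KO line (adjusted p = 0.000261 and 0.000252). *Stc2* (−3.15 and −4.35, adjusted p = 0.0011 and 6.08e-05), *Gapdh* (−2.49 and −5.08, adjusted p = 0.00527 and 9.33e-06), *Cited2* (−2.49 and −3.90, adjusted p = 5.44e-08 and 1.01e-10) and *Edn1* (−2.48 and −3.86, adjusted p = 0.00267 and 4.74e-05) were the most lowered in both.

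Over the 20 tumors, the genes whose log2(CPM + 1) was most like that of *Hif3a* included *E230001N04Rik* (Pearson r = 0.912), *Mt2* (0.884), *Ctla2a* (0.884) and *Reg1* (0.858), among 15919 genes. For *Car9* they were *Galm* (0.795), *Gtf3c5* (0.792), *Flywch2* (0.775), *Gucy1a3* (0.775) and *Atp1b2* (0.765). These r are descriptions over tumors of 4 groups, which share treatment and genotype as well as any other likeness, and with a pseudocount of 0.1 in place of 1 each list kept 2 of its 5 genes (*E230001N04Rik* and *Mt2*, *Galm* and *Gtf3c5*).

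Promoters were read for the letters of the hypoxia response element core (ACGTG, or the same letters with G in the first place) and of a GR half-site, AGAACA, on both strands of the 250 bases before each start in RefSeq on GRCm38.p6. A total of 9 of the 10 members had an entry, in 11 windows, and *Epas1* had none. A hypoxia core was in 9 of the 11 windows, against 38.6% of 32851 promoters of the same length, of which 16.6% held the form with A first and 28.2% the form with G first. Each of the 9 members had a core in a window, a count with no share over all genes beside it. For *Vegfa* the cores were in a window inside the gene (chr17:46025164-46025413), and the window before its first start (chr17:46032378-46032627) had none. AGAACA was in 1 of the 11 windows, the second of *Pdk1*, against 16.1% of all. A match shows that the letters are there and not that a factor binds. Sequences are given for *Hif3a*, the member called with GC in parental tumors, and *Egln3*, *Bnip3* and *Car9*, the members with a promoter entry that were called higher in tumors than in cultures of both lines, with the cores of either strand in capitals. They lie at chr7:17062428-17062677 (minus strand), chr12:54203875-54204124 (minus), chr7:138909507-138909756 (minus) and chr4:43506776-43507025 (plus). *Bnip3* held 5 cores, 2 of which overlap as a palindrome, *Hif3a* 2, and *Egln3* and *Car9* 1 each.
Hif3a: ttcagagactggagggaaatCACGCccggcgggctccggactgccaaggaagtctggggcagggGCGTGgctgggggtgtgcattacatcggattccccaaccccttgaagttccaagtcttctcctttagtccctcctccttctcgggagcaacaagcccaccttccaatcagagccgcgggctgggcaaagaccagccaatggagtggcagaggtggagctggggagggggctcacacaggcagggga
Egln3: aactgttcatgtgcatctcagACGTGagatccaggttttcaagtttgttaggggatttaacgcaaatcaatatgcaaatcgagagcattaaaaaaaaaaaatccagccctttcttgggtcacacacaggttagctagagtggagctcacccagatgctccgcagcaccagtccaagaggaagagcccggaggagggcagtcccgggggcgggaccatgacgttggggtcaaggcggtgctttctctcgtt
Bnip3: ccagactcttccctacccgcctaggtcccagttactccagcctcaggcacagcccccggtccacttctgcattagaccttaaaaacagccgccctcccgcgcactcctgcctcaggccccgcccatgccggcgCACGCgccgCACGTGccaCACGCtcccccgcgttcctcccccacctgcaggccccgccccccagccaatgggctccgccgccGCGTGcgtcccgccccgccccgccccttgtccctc
Car9: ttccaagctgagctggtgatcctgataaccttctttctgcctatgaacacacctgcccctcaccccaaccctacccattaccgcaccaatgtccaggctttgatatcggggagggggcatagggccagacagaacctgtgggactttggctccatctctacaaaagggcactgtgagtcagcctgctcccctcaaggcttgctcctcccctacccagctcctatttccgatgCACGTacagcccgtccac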

How the data were processed

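The 20 tumors and 11 cultures gave 3′ tag libraries of bulk RNA. The authors trimmed reads with Trim Galore, aligned them to GRCm38 with STAR and deposited featureCounts counts per gene of Ensembl 75. The strand setting of featureCounts is not given in the sources used. Of the symbols 176 occur more than once, none of them a member. A gene entered a fit if 3 or more of its samples reached a CPM of 0.5, and edgeR 4.0.16 (R 4.3.3) was run with TMM factors and its quasi-likelihood test, with Benjamini-Hochberg adjustment over all genes of the fit. The 12 contrasts came from 3 fits, of the tumors (15919 genes), the cultures (12525) and the control samples (15468). The other test was DESeq2 1.42.0. Positions came from GENCODE M21, and promoters from RefSeq. The pipeline was tested on simulated data. Members and lists were chosen with earlier results of these data known. Named genes are the members, *Nr3c1* and *Tsc22d3*, called pathway genes (all where 6 or fewer, otherwise the 4 most changed in each direction) and the 5 genes most like *Hif3a* and *Car9*, and not all of these are printed; of the fixed marker lists, those called or most abundant are named, a choice made after their values were seen. Alternatives varied the fold minimum, test, size factors, filter, replicate block, groups fitted, level scaling, pseudocount and samples. Library totals without TMM factors, and the compared groups alone without a filter, were added after seeing the data. Protein sequences were not used here.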

Additional observations from a re-analysis of the deposited data

Results flagged for a closer look

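Among 47 groups of 5 tumors (of the members, *Nr3c1* and *Tsc22d3*) that were screened for a sample far from the rest, 3 had one, and chance flags about 1 in 20 groups. *Adm* was at 138 CPM in replicate 3 of the GC-treated parental tumors, a gap of 0.716 of the group's range, and at 56.1 CPM in replicate 2 of the parental control tumors, a gap of 0.805. *Vegfa* was at 27 CPM in replicate 4 of the GR KO control tumors, a gap of 0.807. The effect of GC differed between parental and GR KO cells by a log2 fold change of 1.33 for *Lox* and 3.14 for *Tsc22d3*, by edgeR's test of the difference. No explanation was weighed.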

How the results depend on the processing

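Over 2030 results for single members under an alternative, 1911 stayed on their side of the threshold, 81 lost a call and 38 gained one. No called result reversed, and 39 of the 1911, none of them called, changed sign. The counts of members called moved as follows, and the cause was not tested unless the setting tests fewer genes or samples. For GC in parental tumors (1 called) the count was 2 with DESeq2, 0 with at least 10 counts in every sample, where *Hif3a* is no longer tested, 2 in a fit of the compared groups alone and 0 to 2 with a tumor left out. For GC in GR KO tumors (3) it was 2 with a minimum fold change of 2, 4 with DESeq2, 2 with at least 10 counts, 0 in the fit of the compared groups alone, where *Hif3a* is not tested, and 1 to 5 with a tumor left out. The difference of these effects (0) gave 2 with DESeq2 and 0 to 3. Between genotypes in control tumors (2) it was 1 with a minimum fold change of 2, 4 with DESeq2, 1 without a filter, 1 with at least 10 counts, 0 in the compared groups alone and 0 to 5, and in GC-treated tumors (1) it was 3 with DESeq2, 2 without a filter, 0 with at least 10 counts, 2 in the compared groups alone and 0 to 1. For GC in parental cells (1) it was 2 with DESeq2, without a filter, with at least 10 counts and with library totals (chosen after seeing the data), 0 in the compared groups alone and 0 to 0 with a culture left out. The difference of effects in cells (0) gave 1 with DESeq2. Between lines in DMSO (2) it was 1 with a minimum fold change of 2, with at least 10 counts and with the replicate block, 3 with DESeq2, without a filter and with library totals, and 1 to 2 with a culture left out, and in GC (1) it was 1 to 2. Tumors against cultures gave 3 of 5 in the parental line with a minimum fold change of 2 and with at least 10 counts, 4 with the replicate block and 3 to 5 with a sample left out, and in the GR KO line (7) 4 with a minimum fold change of 2, 5 with at least 10 counts, 6 in the compared groups alone and 5 to 8. In the compared groups alone without a filter (chosen after seeing the data) the count was 2 and 0 for GC in parental and GR KO tumors, 0 and 2 between genotypes in control and GC-treated tumors, 2 and 0 for GC in parental and GR KO cells, 3 and 1 between lines in DMSO and GC, and 6 and 6 for tumors against cultures. Same-numbered replicates do not form pairs that the data show: deviations from group means had a mean r of 0.0581 over 30 pairs of tumors and 0.0199 over 15 pairs of cultures, so the replicate block is an alternative. Library totals without TMM factors shifted the median of all genes by 0.26 for GC in GR KO tumors, −0.29 for the difference of effects and −0.26 between genotypes in control tumors. Of 80 group means 2 moved by more than 1 SD without TMM factors. *Nr3c1* between genotypes in control tumors had an adjusted p of 0.0313 with all tumors and 0.0524 to 0.086 without any 1 of 8 of the 10. *Car9* and *Hif3a* had fewer than 10 counts in every culture.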
